A study of Oryctolagus cuniculus with 9 samples.

Results

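Of 14870 genes listed in rabbit cartilage, 6 are described here: SLC2A1 (ENSOCUG00000005924), HK2 (ENSOCUG00000000197), GAPDH (ENSOCUG00000025023), TPI1 (ENSOCUG00000025649), ENO1 (ENSOCUG00000010086) and PKM (ENSOCUG00000006119). These 6 genes were chosen by symbol, as 1 transporter that brings glucose into cells and 5 enzymes that turn it into pyruvate. Articular cartilage has no blood vessels and little oxygen, and chondrocytes are known to draw most of their energy from glycolysis. Glucose enters through facilitative transporters such as the SLC2A1 product, is trapped by hexokinases such as HK2, and is then split and oxidized along a chain of enzymes that ends at pyruvate kinase. Transcription of several of these genes is known to be driven by the oxygen-sensing factor HIF1A.

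RNA was sequenced from 9 libraries of New Zealand white rabbits, 3 per group, 12 weeks after knee surgery. The rabbits were 4 to 5 months old when selected for the study. The untreated group was tissue from a full-thickness defect cut in the trochlear groove and left empty, and the CLCS group was tissue from such a defect filled with a collagen scaffold functionalized with chondroitin sulfate. The healthy group was uninjured cartilage, which the study's scheme shows taken from the condyle, so healthy state and joint site cannot be told apart. The scheme draws 3 rabbits with the scaffold in the right knee and the empty defect in the left, but the labels do not tie libraries to animals, and p-values therefore measure the spread between these libraries.

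The deposited values were read counts divided by a size factor for each library (normalized reads), and the whole reads behind them could be recovered. Libraries held 724986 to 1226408 recovered reads, and 1 gene, ENSOCUG00000023467, took 1.49% to 49.4% of them. The paper reports far more aligned read pairs for each library, so these totals are not the sequencing depth. Why so few reads were counted on genes is not given in the sources used here. Of the recovered reads on 13 protein-coding mitochondrial genes, 86% to 94.4% were on ND6, and the strand setting of the count is not given in the sources used here. Untreated replicate 3 stood apart, with 1.49% of its reads on that most abundant gene against at least 17.8% in each of the other libraries, and results that rest on it are given with and without it. Gene lengths were not used, so levels are compared between libraries and never between genes.

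All 6 genes were detected in all 9 libraries, at low counts. Summed over the 6 genes, the healthy libraries held 310, 138 and 171 recovered reads, the untreated libraries 95, 59 and 130, and the CLCS libraries 94, 102 and 99. On the normalized scale the sums were 292, 140 and 154 in healthy cartilage, 74.8, 59 and 118 in untreated defects, and 97.1, 100 and 123 in CLCS defects. Each healthy sum was above each defect sum on both scales, and healthy replicate 1 was the highest library. Scaled to all recovered reads of a library instead (CPM), the groups overlapped, with 146 in healthy replicate 2 and 179 in untreated replicate 3. That overlap rested on untreated replicate 3, as the other defect libraries were at 73.7 to 120.5. With the most abundant gene left out of the total, healthy libraries were at 203.7 to 504.9 and defect libraries at 89.6 to 182.

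**Figure D1:**
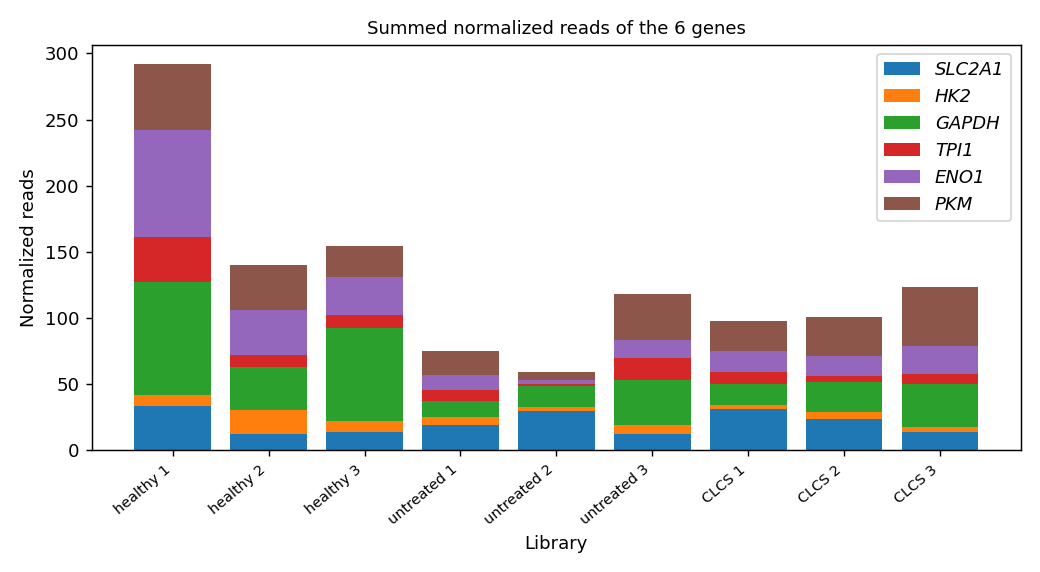
Normalized reads of the 6 genes (y axis) stacked by gene for each of the 9 libraries (x axis). The healthy bars reach 140 to 292 and the 6 defect bars 59 to 123, so the healthy and defect libraries do not overlap on this scale. Scaled to all recovered reads, untreated replicate 3 overlaps the healthy libraries.

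SLC2A1 encodes GLUT1, the glucose transporter of most cells in their basal state. Its recovered reads were 35, 12 and 15 in healthy, 24, 29 and 13 in untreated and 30, 24 and 11 in CLCS libraries. The 3 groups overlapped over nearly their whole range, with normalized means of 19.6 ± 11.6 in healthy, 19.9 ± 8.65 in untreated and 22.8 ± 8.68 in CLCS libraries (SD, n = 3 each).

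HK2 encodes an inducible hexokinase, which phosphorylates glucose and so keeps it in the cell. It held 9, 18 and 9 recovered reads in healthy cartilage, 7, 3 and 8 in untreated defects, and 3, 5 and 3 in CLCS defects. Its normalized mean was 11.6 ± 5.75 in healthy, 5.26 ± 2.14 in untreated and 3.92 ± 0.924 in CLCS libraries (SD, n = 3 each). Every healthy library was above every defect library, though by as little as 1 read, and the untreated and CLCS groups overlapped. A count of 3 reads has an exact 95% Poisson interval of 0.619 to 8.77, and such intervals cover counting error only.

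TPI1 encodes triosephosphate isomerase, which interconverts the products of the aldolase step. Healthy libraries held 36, 9 and 11 recovered reads, untreated libraries 10, 2 and 19, and CLCS libraries 9, 5 and 6. Healthy replicate 1 was high and the other two healthy libraries lay inside the range of the untreated group. Normalized means were 17.7 ± 14.1 in healthy, 9.04 ± 7.68 in untreated and 7.23 ± 2.2 in CLCS libraries (SD, n = 3 each).

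GAPDH encodes the enzyme that oxidizes glyceraldehyde 3-phosphate and is also widely used as a reference gene for PCR. Its recovered reads were 91, 32 and 78 in healthy, 16, 16 and 37 in untreated and 15, 23 and 26 in CLCS libraries. Healthy replicates 1 and 3 were well above all defect libraries, while healthy replicate 2 was level with untreated replicate 3. The normalized mean was 62.9 ± 27.4 in healthy, 20.7 ± 11.2 in untreated and 23.5 ± 8.47 in CLCS libraries (SD, n = 3 each). Mammalian genomes carry processed copies of GAPDH, and reads with multiple alignments were disregarded upstream, so its level is uncertain.

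ENO1 encodes alpha-enolase, which makes phosphoenolpyruvate. It held 86, 33 and 32 recovered reads in healthy libraries, 15, 3 and 15 in untreated libraries, and 15, 15 and 17 in CLCS libraries. All healthy libraries were above all defect libraries, and untreated replicate 2 was the lowest. Its normalized means fell in the order healthy (47.8 ± 28.9), CLCS (17.1 ± 3.5) and untreated (9.47 ± 5.68, SD, n = 3 each), with no overlap between neighbours in that order on the normalized scale. In recovered reads the untreated and CLCS groups met at 15, so the gap between these neighbours exists only after scaling.

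PKM encodes pyruvate kinase M, which forms pyruvate and ATP at the end of the pathway. Recovered reads were 53, 34 and 26 in healthy, 23, 6 and 38 in untreated and 22, 30 and 36 in CLCS libraries. The groups overlapped, untreated replicate 2 was the lowest library, and normalized means were 36 ± 13.3 in healthy, 19.5 ± 14.3 in untreated and 32.4 ± 11.3 in CLCS libraries (SD, n = 3 each).

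**Figure D2:**
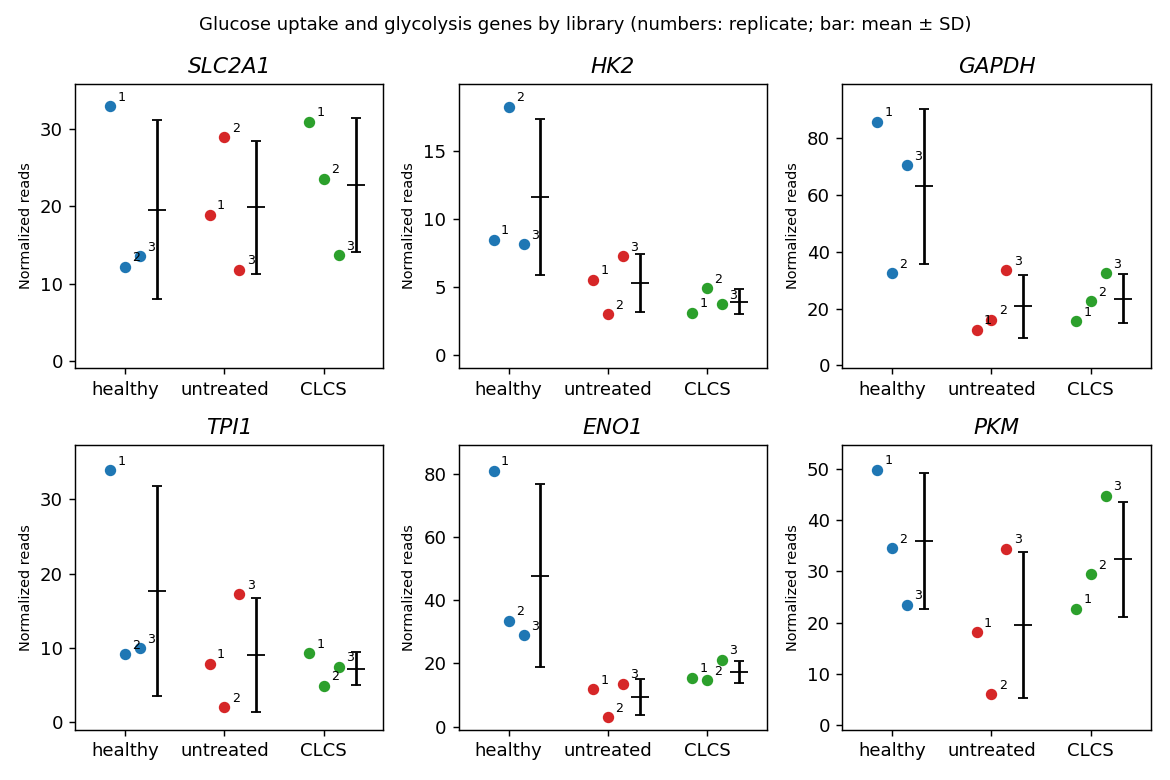
Normalized reads (y axis, linear) of each of the 6 genes in the 3 groups (x axis), with 1 point per library labelled by replicate number and a bar for the mean ± SD of 3 libraries. Healthy libraries are separate from all defect libraries for ENO1 and HK2, while SLC2A1 ranges over 12.2 to 33 in healthy and 11.8 to 31 in defect libraries.

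The first comparison asked which genes differed between an empty defect and healthy cartilage at 12 weeks. None of the 6 genes passed the test. ENO1 and GAPDH had the lowest levels relative to healthy cartilage, TPI1 and PKM had negative estimates with wide errors, and SLC2A1 was near 0. The log2 fold change, on the scale of log2 of normalized reads plus 1, was -2.27 for ENO1 (SE 0.61, adjusted p = 0.112, limma) and -1.57 for GAPDH (SE 0.50, adjusted p = 0.164). It was -1.07 for PKM (SE 0.61, adjusted p = 0.458), -1.0 for TPI1 (SE 0.75, adjusted p = 0.595) and 0.08 for SLC2A1 (SE 0.49, adjusted p = 0.966). HK2 had too few reads in these 6 libraries to be tested. Adding 1 read draws the estimates of genes with few reads toward 0, with PKM at -1.11 with 0.5 added and at -0.92 with 4. The estimates are still not lower bounds of the change, as edgeR on the recovered reads put PKM at -0.86 and TPI1 at -0.95.

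Of all 3496 genes tested in untreated against healthy libraries, 89 were called at an adjusted p under 0.05 (2.55%), and 0 of the 5 members tested were. At an unadjusted p under 0.05, 2 of 5 members (ENO1 and GAPDH) were lower, against 8.01% of all genes. The groups did not overlap, with healthy higher, for 1 of 5 members (ENO1), against 10.7% of all genes. On the recovered reads, DESeq2 called ENO1 lower (log2 fold change -2.32, adjusted p = 0.0125), where it called 3.49% of all genes lower. The quasi-likelihood test of edgeR called no member. Without untreated replicate 3, 3 of 5 members were lower at an unadjusted p under 0.05 (PKM added), against 7.35% of all genes, and PKM was at -1.61. Without healthy replicate 1 or 3, or untreated replicate 1 or 2, ENO1 alone was lower at that level and GAPDH was not. In these fits, in that order, 529, 521, 552 and 471 of 3496 genes were at that level in either direction. Without untreated replicate 2, the lowest library of PKM and TPI1, PKM was at -0.44 and TPI1 at -0.30, and ENO1 at -1.68. The 89 calls became 2 to 7 when any 1 of the 6 libraries was left out, among them 2 without untreated replicate 3.

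The second comparison asked the same of the defects that had received the CLCS scaffold. Again 0 of 5 members tested were called, where 104 of 3294 genes were (3.16%). GAPDH was at -1.33 (log2 fold change, SE 0.45, adjusted p = 0.172) and ENO1 at -1.29 (SE 0.43, adjusted p = 0.167), both with all healthy libraries above all CLCS libraries. For GAPDH that gap was small, with 32.5 normalized reads in the lowest healthy and 32.4 in the highest CLCS library. TPI1 was at -0.97 (SE 0.51, adjusted p = 0.385), PKM at -0.14 (SE 0.39, adjusted p = 0.891) and SLC2A1 at 0.28 (SE 0.47, adjusted p = 0.81), and their groups overlapped. HK2 was again too low to be tested.

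The 2 members without overlap, GAPDH and ENO1, compare with 12% of all genes lower without overlap. They were also the 2 of 5 members lower at an unadjusted p under 0.05, against 8.35% of all genes. Without CLCS replicate 1 no member was lower at that level and the 104 calls became 0, with 436 genes at an unadjusted p under 0.05. Neither edgeR nor DESeq2 called a member in this comparison.

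CLCS and untreated defects were compared directly to ask whether the scaffold altered the repair tissue. No member and no gene of the 3275 tested was called by limma (0%), with 95 genes at an unadjusted p under 0.05, none of them a member. Neither edgeR nor DESeq2 called a gene, with 88 and 76 genes at an unadjusted p under 0.05. All 4 members tested had positive estimates with intervals that spanned 0, and 1620 of all 3275 genes had positive estimates. ENO1 was at 0.98 (95% interval -0.20 to 2.17) and PKM at 0.94 (-0.44 to 2.31), GAPDH at 0.23 (-0.78 to 1.25) and SLC2A1 at 0.20 (-0.79 to 1.19), each with an adjusted p of 0.996. A log2 difference of 1, which is a doubling, lay inside all 4 intervals, so a difference of that size is not excluded. Without untreated replicate 2, ENO1 was at 0.39 and PKM at 0.30. ENO1 was the 1 of 4 members higher in CLCS without overlap, against 3.82% of all genes. HK2 and TPI1 could not be tested.

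Both defect groups were also set, as the mean of their group means, against healthy cartilage in 1 fit of all 9 libraries. Of 3812 genes tested, 251 were called (6.58%), and 0 of the 6 members were called, with ENO1, GAPDH and HK2 nearest to the threshold. ENO1 was at -1.78 (log2 fold change, SE 0.48, adjusted p = 0.0598), GAPDH at -1.45 (SE 0.42, adjusted p = 0.0771) and HK2 at -1.14 (SE 0.34, adjusted p = 0.0862). TPI1 was at -0.98 (SE 0.59, adjusted p = 0.391), PKM at -0.61 (SE 0.49, adjusted p = 0.553) and SLC2A1 at 0.18 (SE 0.42, adjusted p = 0.855).

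These 3 of 6 members (ENO1, GAPDH and HK2) were lower at an unadjusted p under 0.05, against 8.92% of all genes. HK2 could be tested only in this fit, where it passed the filter on low values by healthy replicates 1 and 2 and untreated replicate 3, at 12, 19.1 and 11 CPM against a minimum of 10.9, so its level in healthy libraries bore on its being tested. ENO1 and HK2 were the 2 of 6 with every healthy library above every defect library, against 5.75% of all genes. On the recovered reads, 2 members were called lower by both count tests. In edgeR, which called 3.54% of all genes lower, ENO1 was at -1.90 (adjusted p = 0.0275) and GAPDH at -1.52 (adjusted p = 0.0405). In DESeq2, which called 4.96% of all genes lower, ENO1 was at -1.92 (adjusted p = 0.00323) and GAPDH at -1.53 (adjusted p = 0.0123).

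Single libraries decided on which side of the limma threshold these genes fell. Without untreated replicate 3 both ENO1 (-1.95, adjusted p = 0.0489) and GAPDH (-1.65, adjusted p = 0.0433) were called, where 2.36% of all genes were called lower. Without healthy replicate 2 GAPDH was called (-1.86, adjusted p = 0.0467), where 1.5% of all genes were called lower. Without healthy replicate 1, where ENO1 and TPI1 were highest, ENO1 was at -1.33 and TPI1 at -0.41. The 2 comparisons with healthy cartilage and the pooled one share the same 3 healthy libraries and are not independent of each other.

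**Figure D3:**
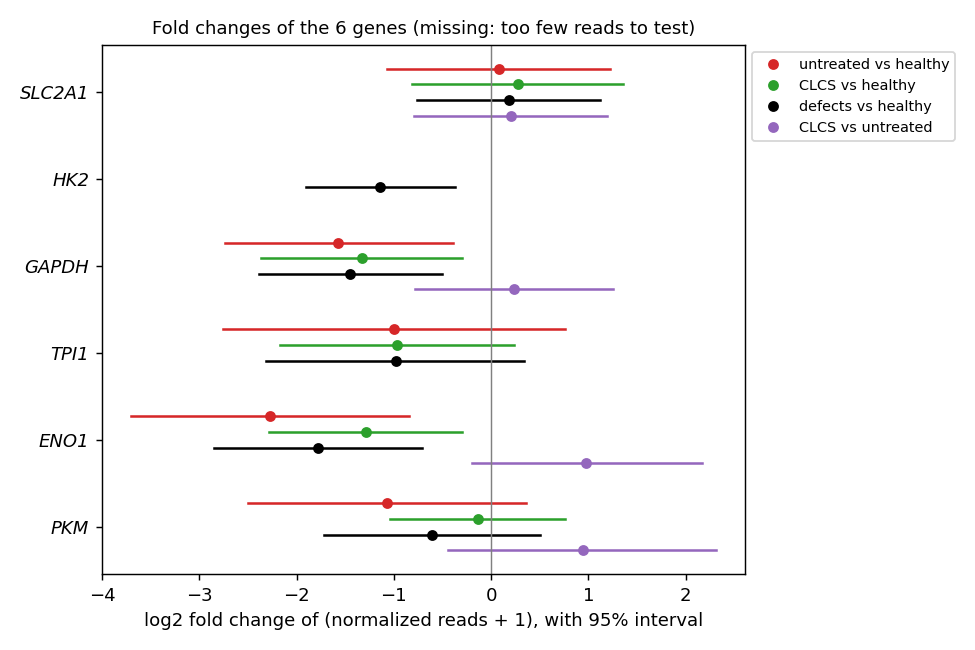
Log2 fold change of normalized reads plus 1 (x axis) for each of the 6 genes (y axis) in the 4 comparisons, as points with 95% intervals from limma. The pooled estimates run from -1.78 for ENO1 to 0.18 for SLC2A1, and all 4 intervals of CLCS against untreated defects span 0; a missing point marks a gene with too few reads.

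The wider set of 27 glycolytic enzyme genes had 20 in the table, the 5 enzyme members among them. None was called by limma in any of the 4 comparisons, while the count tests made the calls of ENO1 and GAPDH given above. In untreated defects all 9 enzyme genes tested had negative estimates, against 1802 of all 3496 genes, with a median log2 fold change of -0.93 against -0.02. Of these 9, 4 were members described above, and PFKP and HKDC1 were each at -0.01. In CLCS defects 8 of 9 were negative (median -0.47), against 1816 of 3294 genes (median -0.08). For both defect groups pooled 9 of 10, HK2 included, were negative (median -0.65), against 1999 of 3812 genes (median -0.04). Between CLCS and untreated defects 6 of 7 were positive, with a median of 0.23, against 1620 of 3275 genes.

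Most reads of this list were on PFKP, the platelet form of phosphofructokinase, with 294 to 486 recovered reads in healthy, 407 to 452 in untreated and 336 to 440 in CLCS libraries. The 3 groups of PFKP overlapped. PGAM2, the muscle phosphoglycerate mutase, had normalized means of 40.2 ± 15 in healthy, 21 ± 6.4 in untreated and 29.1 ± 13.3 in CLCS libraries (SD, n = 3 each). Its log2 fold change was -0.87 in untreated (SE 0.40, adjusted p = 0.347) and -0.50 in CLCS defects (SE 0.47, adjusted p = 0.646) against healthy cartilage. GAPDHS, the sperm form of GAPDH, was at -0.64 (SE 0.31, adjusted p = 0.368) and -0.47 (SE 0.37, adjusted p = 0.576) in the same order. On the CPM scale, the 20 listed enzymes together took 793 to 927 CPM in healthy, 666 to 876 in untreated and 465 to 678 in CLCS libraries. With the most abundant gene left out of the total these ranges were 1106 to 1165, 810 to 933 and 754 to 988, so the healthy libraries were then separate from all defect libraries. Over all reads, the overlap with healthy libraries rested on untreated replicate 3 (876), as untreated replicates 1 and 2 were at 714 and 666.

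Among regulators of the pathway, HIF1A stood lowest against healthy cartilage. This gene encodes the oxygen-regulated subunit of the hypoxia-inducible factor. Its recovered reads were 206, 52 and 207 in healthy, 40, 8 and 47 in untreated and 21, 20 and 42 in CLCS libraries. Every healthy library was above every defect library, as for 5.75% of all genes in the pooled comparison. The gap of HIF1A was small on the normalized scale, with 52.8 in the lowest healthy and 52.3 in the highest CLCS library. Its log2 fold change was -2.42 in untreated (SE 0.73, adjusted p = 0.148), -2.10 in CLCS (SE 0.60, adjusted p = 0.12) and -2.26 in both defect groups pooled (SE 0.61, adjusted p = 0.0624), none of which passed in limma. On the recovered reads it was called lower in pooled defects by edgeR (-2.31, adjusted p = 0.0229) and DESeq2 (-2.31, adjusted p = 0.00132), and by DESeq2 in untreated (-2.38, adjusted p = 0.0117) and CLCS defects (-2.20, adjusted p = 0.00548). With replicate numbers as a block in limma, although pairing was not established, it was called lower in CLCS defects (-2.10, adjusted p = 0.0444). Without healthy replicate 2 it was also called there (-2.71, adjusted p = 0.042).

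HIF1A was 1 of 13 listed regulators in the table, of 19, and of 5 tested. All 5 had negative estimates in both defect groups, against 1802 of 3496 genes in untreated and 1816 of 3294 in CLCS defects. Their medians were -0.42 in untreated and -0.27 in CLCS defects, and HIF1A was the one with an unadjusted p under 0.05. The others were TIGAR, a phosphatase that restrains glycolysis, with 125 to 216 recovered reads over the 9 libraries, EPAS1, which encodes the related HIF-2 alpha subunit, with 12 to 77, PFKFB2, which makes an activator of phosphofructokinase, with 6 to 33, and ARNT, the partner of both factors, with 6 to 20. Their groups overlapped in all comparisons with healthy cartilage except for TIGAR in CLCS defects.

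Of 14 glucose transporter genes listed, 5 were in the table and 2 passed the filter on low values, SLC2A1 and SLC5A2. SLC5A2, the sodium-coupled transporter known from kidney, had 1224 to 2548 recovered reads in healthy, 1613 to 3250 in untreated and 1640 to 3250 in CLCS libraries, with overlapping groups. It overlaps RUSF1 in the newer mOryCun1.1 assembly, and reads of overlapping genes cannot be told apart without a stated strand setting. No transporter was called in any comparison.

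The list of enzymes and carriers for lactate and pyruvate had 14 of 23 genes in the table and 4 tested, LDHC, SLC16A1, PDK4 and DLAT, none of them called or at an unadjusted p under 0.05 in any comparison. SLC16A1, a carrier that exports lactate, held 121 recovered reads in each healthy library, 107 to 110 in untreated and 70 to 105 in CLCS libraries. LDHC, the testis form of lactate dehydrogenase, held 548 to 669 in healthy and 491 to 627 in defect libraries. PDK4, which inhibits pyruvate dehydrogenase, and DLAT, a subunit of that enzyme complex, held 23 to 73 and 9 to 20 over the 9 libraries. Lists for gluconeogenesis, glycogen, the pentose phosphate pathway, sugar precursors of glycosaminoglycans and the tricarboxylic acid cycle had 1 to 5 genes tested against healthy cartilage where any passed the filter, and none was called. In these 5 lists SUCLG2, a subunit of a tricarboxylic acid cycle enzyme, was the one gene at an unadjusted p under 0.05, higher in untreated and in pooled defects than in healthy cartilage.

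**Figure D4:**
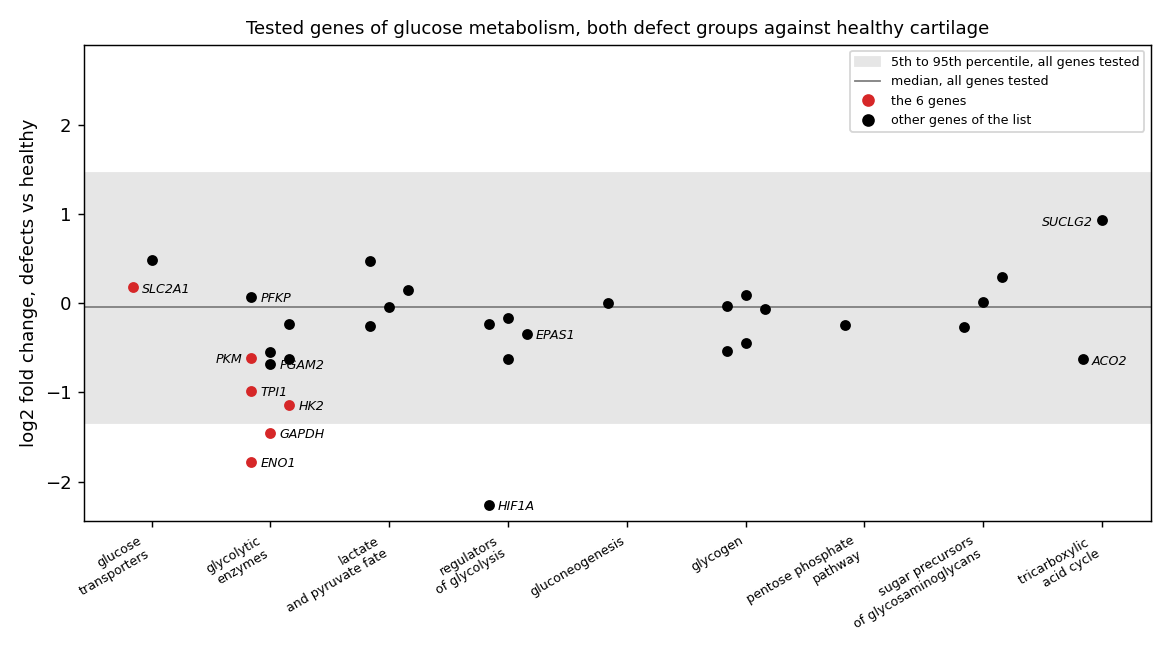
Log2 fold change of both defect groups pooled against healthy cartilage (y axis) for each tested gene of 9 lists of glucose metabolism (x axis), with the 6 genes in red and the others in black. The grey band spans the 5th to 95th percentile of all 3812 genes tested (-1.34 to 1.46), and ENO1, GAPDH and HIF1A lie below it.

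Over the 9 libraries, the 5 enzymes resembled each other more than any resembled SLC2A1. Likeness was measured as the root mean square difference of log2 values scaled to mean 0 and SD 1, where 0 is the same pattern and the median over all genes was 1.32 to 1.38. It was 0.529 between ENO1 and PKM, 0.553 between ENO1 and TPI1 and 0.618 between ENO1 and GAPDH. It was 0.649 between TPI1 and PKM, 0.758 between GAPDH and TPI1 and 0.851 between GAPDH and PKM. From HK2 to the other enzymes it ranged from 0.813 to 0.972. ENO1 ranked 34 of 3811 genes in nearness to PKM, the best rank within the 5 enzymes. The other enzymes ranked 257 to 597 in nearness to HK2, so the likeness was not particular to the enzymes. From SLC2A1 to the other 5 members the difference ranged from 1.38 to 1.64. These points share library, depth and scaling, and the values are a description.

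Of 3811 other genes, DDIT4 had the pattern nearest to that of ENO1 (0.324), followed by CLASRP (0.397) and NR1D1 (0.415). DDIT4, a stress-induced inhibitor of mTOR signalling, held 59, 13 and 29 recovered reads in healthy, 15, 2 and 15 in untreated and 11, 10 and 16 in CLCS libraries. GAPDH was nearest to ZNF292 (0.381), HIF1A (0.43) and ADAMTSL4 (0.441). The nearest genes to TPI1 were SCARA3 (0.303), YTHDC1 (0.345) and RPL7A (0.366), and those to PKM were CREBBP (0.282), HDGF (0.321) and ATIC (0.379). HK2 was nearest to TLN1 (0.432), COL7A1 (0.435) and TTLL8 (0.458), and SLC2A1 to RPP30 (0.299), RRP12 (0.453) and MACF1 (0.491).

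**Figure D5:**
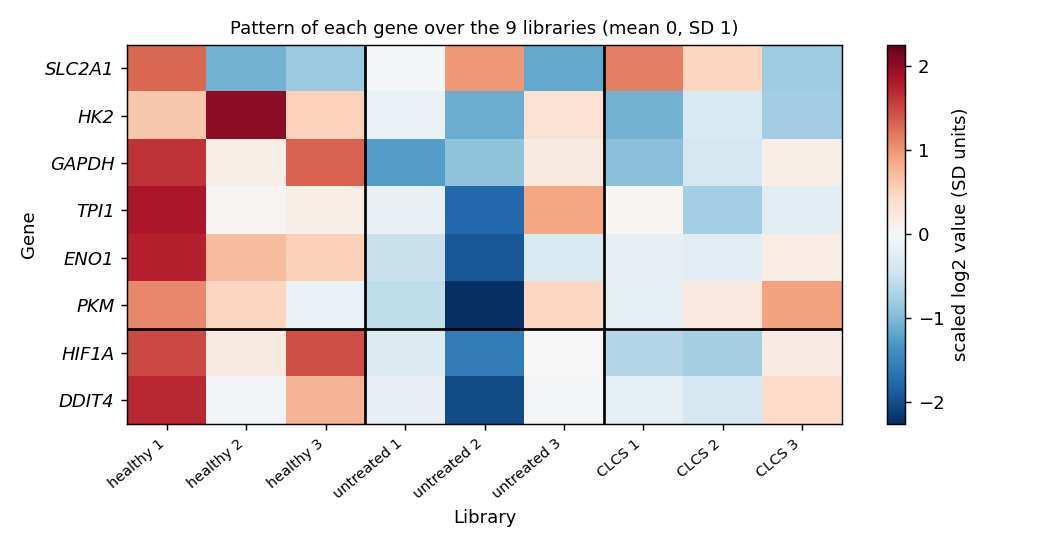
Scaled log2 values (color, in SD units, mean 0 and SD 1 per gene) of the 6 genes and of HIF1A and DDIT4 (rows) in the 9 libraries (columns), with lines between groups. ENO1, PKM and DDIT4 are lowest in untreated replicate 2 (-1.91, -2.26 and -2.02), where SLC2A1 is high (0.982).

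Summed levels of some cell type markers differed between the groups. The summed normalized level of 9 fibroblast markers was 482 to 697 in healthy, 1705 to 4818 in untreated and 2384 to 3892 in CLCS libraries. COL1A1, COL1A2 and COL3A1 carried most of this sum. Of 5 fibroblast markers tested in each defect group, 4 had positive estimates. PDGFRA had negative ones, -0.12 in untreated (SE 0.47) and -0.67 in CLCS defects (SE 0.70). That of 8 bone markers was 308 to 922, 986 to 2984 and 1864 to 2430 in the same order, and that of 9 macrophage and monocyte markers was 60.9 to 69.7, 79.6 to 258 and 97.1 to 104. The 4818, the 986 and the 258 were all untreated replicate 3. Without it the untreated group held 3282 and 1705 for fibroblast markers and 79.6 and 84 for macrophage and monocyte markers. For bone markers it then held 2984 and 2597, each above every CLCS library. Of 4 macrophage and monocyte markers tested, 3 had positive estimates in untreated and 2 in CLCS defects. AIF1 had negative ones in both (-0.44 and -0.58), with all healthy libraries above all defect libraries on the normalized scale. Chondrocyte markers (11 of 15 listed) summed to 8619 to 12160 in healthy cartilage, 819 to 10110 in untreated and 10130 to 28230 in CLCS defects, with untreated replicate 3 at the low end and 5218 as the lowest untreated sum without it. COL2A1 carried most of this sum, with 505 to 11191 recovered reads in untreated and 8682 to 20508 in CLCS libraries, against 7608 to 9138 in healthy ones. Of the 8 chondrocyte markers tested, all 8 had negative estimates in untreated and 4 of 8 in CLCS defects, against 1802 of 3496 and 1816 of 3294 genes. CILP, a cartilage matrix protein gene, was called lower by limma in both (-2.78, adjusted p = 0.0381, and -2.39, adjusted p = 0.0361). With any 1 library left out the adjusted p of CILP was 0.0785 to 0.104 in untreated and 0.0474 to 0.141 in CLCS defects.

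Skeletal muscle markers (8 of 10 listed, PGAM2 among them) summed to 48 to 98.4, 31.7 to 47 and 37.2 to 59.8, and 9 of 11 cell division markers to 71 to 133, 72 to 91.6 and 62 to 73.5. Endothelial markers (7 of 8) summed to 53.3 to 71, 39.9 to 71 and 50.2 to 63, and erythroid markers (4 of 11) to 15.2 to 25.3, 10.9 to 18.1 and 11.8 to 30. In all 9 libraries together MATN1, CD163, SLC4A1, ACTA1 and AURKB had under 4 recovered reads each. The part of cell makeup in the levels of the 6 genes was not tested, and in such bulk tissue fewer cells of a type and less RNA per cell cannot be told apart.

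The deposited tables carry no coordinates. In mOryCun1.1, another assembly than the OryCun2.0 used upstream, neighbouring genes lay within 1000 bases of SLC2A1 (LOC127493468), GAPDH (IFFO1), TPI1 (SPSB2 and USP5) and PKM (LOC138844766 and LOC138844809), and none of HK2 or ENO1. Reads of a neighbour that overlaps or runs antisense could not be told apart from those of the gene itself.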

How the data were processed

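PolyA-selected RNA of the 9 libraries was sequenced from TruSeq libraries. The authors used TopHat, which calls Bowtie, for alignment to OryCun2.0, kept unique alignments, obtained gene counts from eXpress and divided them by DESeq2 size factors before deposit. The tool versions, annotation release and strand setting are not given in the sources used here. The deposited values are therefore a normalized signal per gene, although the columns are headed as counts. They were whole multiples of the value of 1 read for 100% of genes in every library (tolerance 0.001), and whole reads were recovered from these steps. The healthy columns stand in both tables and were used once. Columns with the authors' own comparisons, fold changes and p-values, were not used.

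Samples were grouped by the labels. log2 of the deposited signal plus 1 was tested with limma 3.58.1 (lmFit and eBayes, R 4.3.3) on genes kept by filterByExpr on the recovered reads, with Benjamini-Hochberg adjustment over all genes tested where an adjusted p under 0.05 was a call. Alternatives were pseudocounts of 0.5 and 4, no filter, TMM log2 CPM with a prior count of 2, quasi-likelihood tests of edgeR 4.0.16 and DESeq2 1.42.0 on recovered reads, all 9 libraries in 1 fit, a replicate block and leaving out each library. The limma, edgeR and DESeq2 fits of untreated against healthy libraries were tested on simulated data, and the other steps were not. Of 179 tested genes changed by a log2 of 2, limma recovered 44.1%, edgeR 57.5% and DESeq2 76.5%, with 3, 0 and 8 false calls. With no gene changed, each called 0. Replicate pairs of a group differed beyond counting noise (chi-square per degree of freedom 11.1 to 57.9), so none was merged.

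Deviations from group means of same-numbered libraries correlated over 3812 genes at 0.276, 0.143 and 0.193 for healthy and CLCS and at 0.246, 0.334 and 0.297 for untreated and CLCS libraries. For healthy and untreated libraries the correlations were 0.288, 0.125 and -0.0361. Libraries of different number were not compared in this way, so these values cannot show which libraries share an animal. The main fits used no pairing.

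The members and lists were chosen with earlier results of these data known. Genes named were the 6 members, listed pathway genes that were called or, of those tested, up to 4 per list with the most reads, and the 3 genes nearest in pattern to each member. Outside that rule and chosen after their values were seen were ARNT, CILP, HKDC1, PDGFRA, AIF1 and the genes of the closing section. Gene symbols are those of the deposited tables.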

Additional observations from a re-analysis of the deposited data

How the results depend on the processing

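Over 20 log2 fold changes of the 6 genes and 292 alternative settings, 268 kept the direction and the side of the threshold, 12 gained a call and 12 changed direction, all of the latter for estimates between -0.14 and 0.23 that were not called. In untreated against healthy libraries, ENO1 was called by DESeq2 (-2.32) and with all 9 libraries in 1 fit (-2.27, adjusted p = 0.0459), and SLC2A1 turned to -7e-05 in DESeq2. In pooled defects ENO1 was called at a pseudocount of 4 (-1.54, adjusted p = 0.0381), with TMM log2 CPM (-1.70, adjusted p = 0.0439), in edgeR (-1.90), in DESeq2 (-1.92) and with a replicate block (-1.78, adjusted p = 0.0414), and GAPDH in edgeR (-1.52) and DESeq2 (-1.53). Leaving out 1 library at a time gave ranges of -0.23 to 0.51 (SLC2A1, untreated against healthy), -2.62 to -1.68 (ENO1, untreated against healthy), -0.40 to 0.12 (PKM, CLCS against healthy), -0.11 to 0.51 (SLC2A1, CLCS against untreated), -0.04 to 0.63 (GAPDH, CLCS against untreated), 0.39 to 1.32 (ENO1, CLCS against untreated), 0.30 to 1.47 (PKM, CLCS against untreated), -1.61 to -0.44 (PKM, untreated against healthy), -1.61 to -0.30 (TPI1, untreated against healthy), and in pooled defects -0.08 to 0.61 (SLC2A1), -1.86 to -1.17 (GAPDH) and -2.06 to -1.33 (ENO1).

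Genes called in untreated against healthy libraries numbered 89, 20 without the filter, 275 in DESeq2, 173 with all 9 libraries in 1 fit, and 2 to 7 with 1 library left out. In CLCS against healthy libraries they numbered 104, 13 without the filter, 243 in DESeq2 and 0 to 81 with 1 library left out. In pooled defects they numbered 251, 425 in DESeq2 and 96 to 235 with 1 library left out. The mean summed level of the listed glycolytic enzymes moved from 861, 752 and 582 CPM in healthy, untreated and CLCS libraries to 1135, 877 and 887 when the most abundant gene was left out of the total.

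With the replicate number as a block, 94, 125, 0 and 319 genes were called in untreated against healthy, CLCS against healthy, CLCS against untreated and pooled defects. Beyond ENO1 in pooled defects, the block changed the call of no member, and of HIF1A it changed the calls in all 3 comparisons with healthy cartilage. HIF1A with the block was at -2.42 in untreated defects (adjusted p = 0.0334) and at -2.26 in pooled defects (adjusted p = 0.0116). Pairing was not established for any of these comparisons. In pooled defects it was also called at a pseudocount of 4 (adjusted p = 0.0412) and with TMM log2 CPM (adjusted p = 0.0389). A member held at most 91 recovered reads in a library, and replicates of a group differed beyond counting noise. The cause of each change above was not tested.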

Other observations

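Some other genes of glucose metabolism had too few reads to be tested and are given as recovered reads, chosen after their values were seen. ENO2, the neuronal enolase, held 6, 10 and 7 reads in healthy, 0, 2 and 3 in untreated and 1, 3 and 0 in CLCS libraries, so that each healthy library was above each defect library, as for ENO1. TXNIP, which restrains glucose uptake, held 15, 2 and 4 in healthy, 4, 2 and 1 in untreated and 0, 6 and 1 in CLCS libraries, and its groups overlapped. PYGM, the muscle glycogen phosphorylase, held 18 reads in CLCS replicate 3 and at most 4 in each of the other 8 libraries.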
